A study of Mus musculus with 26 samples.

Results

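Esrp1, Esrp2, Grhl1, Grhl2, Grhl3, Ovol1, Ovol2, Elf3, Ehf and Klf5 are 10 genes for factors that hold cells in the epithelial state, and their transcript levels are described here among the 47730 features of the count table. They were taken by name: the Ensembl identifiers of the count table were matched to gene symbols, and the rule uses names only. All 10 were in the table and all 10 passed the filter on low counts, which left 16637 features for testing.

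ESRP proteins bind RNA in epithelial cells and set the epithelial splice forms of many transcripts. Grainyhead-like (GRHL) factors open and hold enhancers of junction genes, and OVOL zinc-finger proteins repress genes of the mesenchymal programme such as Zeb1. ELF3 and EHF are epithelial factors of the ETS family, and KLF5 is a zinc-finger factor of basal and progenitor cells of several epithelia. In carcinoma cells many of these genes are shut off during epithelial-mesenchymal transition (EMT), and ZEB1, a repressor that binds E-box motifs, counteracts several of them.

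The samples came from E-A14, a single Her2-expressing mouse mammary tumour line, grown as mammary fat pad tumours in FVB/N mice aged 6 to 8 weeks. Of these hosts, 6 received 100 µg each of anti-CD4 and anti-CD8a antibody (depleted mice), and 6 received 100 µg each of rat IgG2a and rat IgG2b (control mice). Injections were given 2 times a week from 2 weeks before implantation. Tumours were taken at their growth end point, day 20 in depleted mice and day 47 in control mice, so that treatment and time in the host cannot be told apart. From each tumour, live Her2-positive cells lacking CD90, CD105 and CD45 were sorted by surface EpCAM, giving 2 fractions and 6 libraries for each of the 4 tumour groups. Another 2 libraries came from E-A14 cells in culture, for which separate cultures are not stated, so their spread may be technical. Library totals ran from 17559520 to 25601999 counts in depleted tumours, from 26895429 to 38740143 in control tumours and from 27253363 to 35059744 in culture, so depth does not overlap between the treatments. Levels are given as CPM, read counts scaled by library size. In bulk RNA from sorted cells, fewer cells that express a gene and less RNA per cell cannot be told apart.

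The labelled fractions were checked against Epcam, the target of the sort. In depleted tumours its level was 2437 ± 241 CPM (SD, n = 6) in the EpCAM-positive fraction against 140.4 ± 83.4 CPM in the other. In control tumours the corresponding levels were 1183 ± 239 and 1.63 ± 0.546 CPM. The EpCAM-negative cells of depleted tumours therefore kept 5.76% of the Epcam level of their EpCAM-positive counterparts, against 0.138% in control tumours. Thy1, the gene for CD90, had at most 0.149 CPM in any library. Ptprc, the gene for CD45, averaged 4.43 and 4.84 CPM in the EpCAM-positive and EpCAM-negative fractions from depleted mice, and 0.764 and 0.0567 CPM in those from control mice.

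RefSeq promoter windows of build GRCm38.p6 were at hand for 4 of the 10 genes, Grhl1, Grhl3, Ovol2 and Elf3. The 250 bases before the start site are shown for 3 of them, Elf3 and Ovol2 because they moved together across the tumour groups, and Grhl3 as a low-expressed gene that holds the same E-box as Elf3. All 3 genes lie on the minus strand and each sequence is written 5′ to 3′ in the direction of transcription, with the E-box in capitals.
Elf3 (chr1:135258473-135258722): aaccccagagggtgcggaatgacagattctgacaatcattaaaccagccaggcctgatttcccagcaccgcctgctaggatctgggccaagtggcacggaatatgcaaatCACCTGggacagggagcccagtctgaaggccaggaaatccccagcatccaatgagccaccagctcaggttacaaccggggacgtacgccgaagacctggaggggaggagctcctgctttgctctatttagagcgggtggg
Ovol2 (chr2:144331363-144331612): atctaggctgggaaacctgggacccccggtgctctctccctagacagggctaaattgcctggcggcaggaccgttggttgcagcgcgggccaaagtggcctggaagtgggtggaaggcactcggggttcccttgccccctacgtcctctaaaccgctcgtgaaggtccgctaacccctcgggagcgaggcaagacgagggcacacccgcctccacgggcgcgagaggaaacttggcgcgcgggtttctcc
Grhl3 (chr4:135573633-135573882): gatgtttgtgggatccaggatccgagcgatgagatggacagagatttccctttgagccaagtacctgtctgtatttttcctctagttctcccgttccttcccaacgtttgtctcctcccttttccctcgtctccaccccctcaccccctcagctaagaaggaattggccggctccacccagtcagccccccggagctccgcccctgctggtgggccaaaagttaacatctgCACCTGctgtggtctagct
The E-box searched was CAGGTG with its reverse complement CACCTG. It lies 140 to 135 bases before the start site in Elf3 and 19 to 14 bases before it in Grhl3, and it was not found in the windows of Ovol2 or Grhl1. Of all 32851 windows of that length, 17.2% hold it. On both strands, the OVOL motif CCGTTA (2.18% of windows), the grainyhead motif AACCNGTT (1.79%) and the KLF motif CCACACCC (3.20%) matched none of the 5 windows of these 4 genes. The ETS motif AGGAAG (29.5% of windows) matched 1 of the 2 Grhl1 windows, 201 to 196 bases before the start site. The windows differ in CpG content, with 8 CpG dinucleotides in Elf3, 8 in Grhl3 and 20 in Ovol2, against a median of 6 over all windows. A match describes these letters only.

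**Figure D1:**
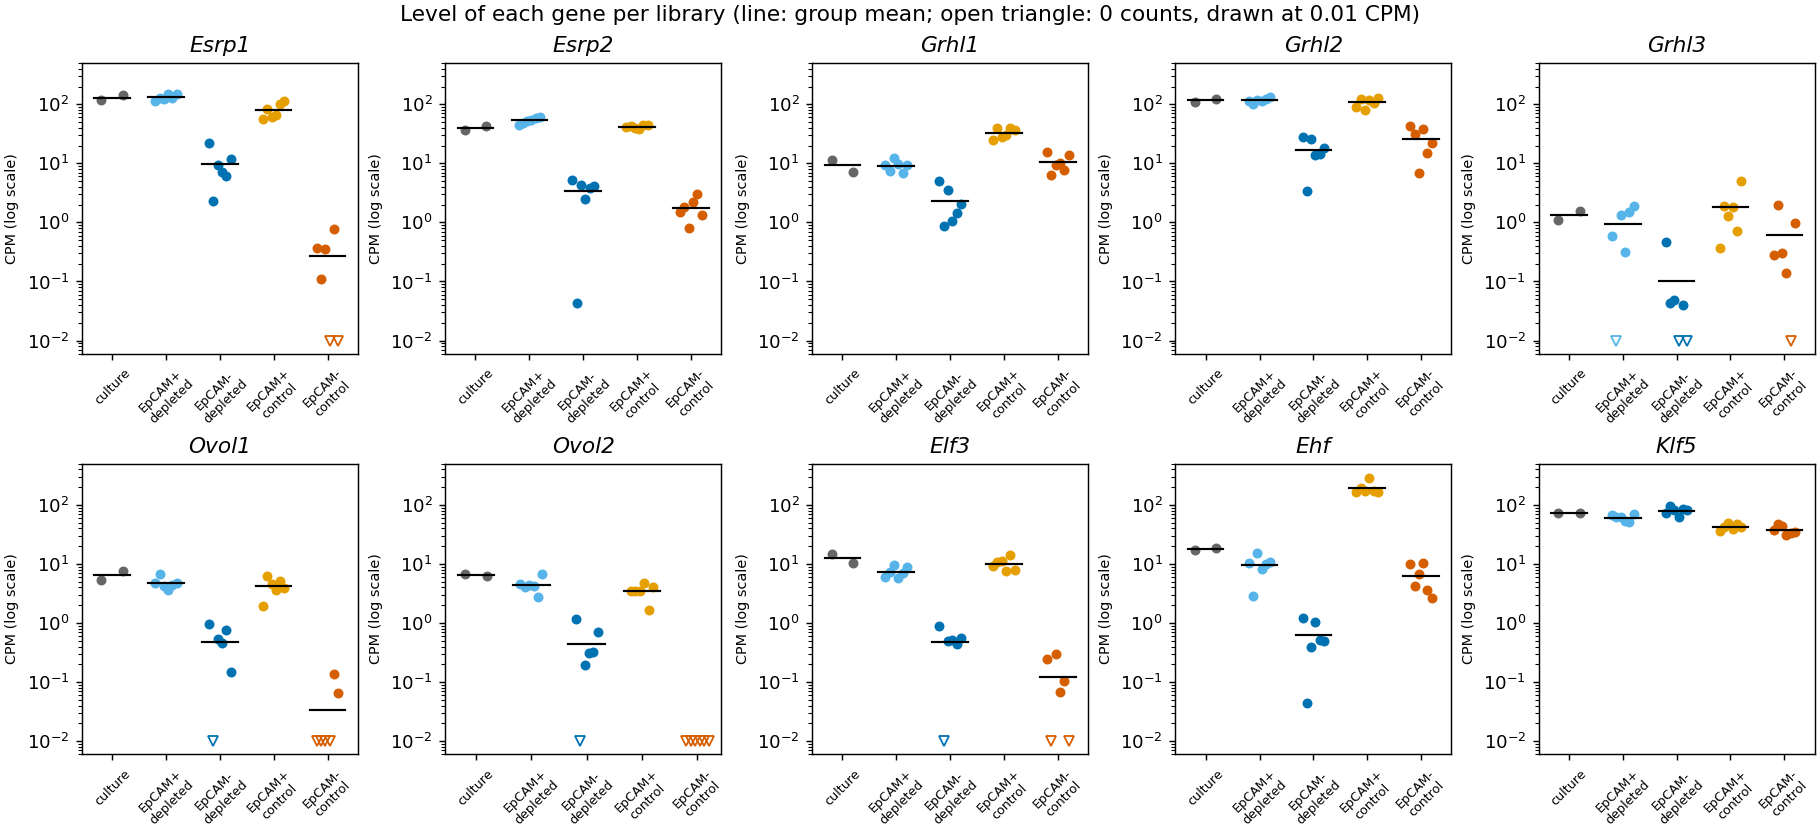
Level of each of the 10 genes in each of the 26 libraries, in CPM on a log axis, by group; points are libraries, lines are group means and open triangles are libraries with 0 counts. Ovol2 has 0 counts in all 6 EpCAM-negative control libraries, Ehf peaks in EpCAM-positive control cells, and Klf5 stays between 30.6 and 97.3 CPM throughout.

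The first comparison, named in the study's design, is that of EpCAM-negative with EpCAM-positive cells of the same treatment. In control tumours 8 of the 10 genes were lower in EpCAM-negative cells and the other 2, Grhl3 and Klf5, did not pass (edgeR quasi-likelihood test, Benjamini-Hochberg adjusted p under 0.05, as for all calls here). Of all tested features 27.9% were called in this comparison, and 14.5% were called lower. In depleted tumours 9 of the 10 were lower and Klf5 was higher, against 28.5% of all features called, 14.3% lower and 14.2% higher. The median log2 fold change of the 10 genes was -4.76 in control and -3.32 in depleted tumours, where the medians of all tested features were -0.01 and 0.01. In either treatment the libraries of the 2 fractions did not overlap for 8 of the 10 genes, each lower in EpCAM-negative cells, against 13.4% of all features in control tumours (7.1% lower) and 15.5% in depleted tumours (8.45% lower).

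Marker lists of mammary cell types moved with the same contrast. The 7 myoepithelial markers, mostly Krt14, summed to 2833 to 3478 CPM with EpCAM and 236 to 391 CPM without it in control tumours (5 of 7 lower, 2 not passed), and to 1428 to 1834 and 429 to 665 CPM in depleted tumours (1 higher, 1 lower, 5 not passed). The 9 luminal and milk markers, mostly Krt8 and Krt18, summed to 1605 to 2216 and 744 to 1283 CPM in control tumours (6 of 8 tested lower, 2 not passed), and to 4716 to 5658 and 3181 to 4366 CPM in depleted tumours (3 lower, 5 not passed). Each of these sums was lower in every EpCAM-negative library than in any EpCAM-positive library of the same treatment. Their part in the contrast was not tested.

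Esrp1 and Esrp2, the RNA-binding splicing regulators, fell by different amounts in control tumours. In control tumours Esrp1 was at 56.1, 61.1, 65.4, 82.0, 102 and 112 CPM in the EpCAM-positive libraries when put in order, and at 0, 0, 0.111, 0.354, 0.369 and 0.765 CPM in the EpCAM-negative ones. Every EpCAM-positive library was thus far above every EpCAM-negative library. The log2 fold change was -8.22 ± 0.51 (SE, adjusted p = 5.29e-12). Summed over libraries, 15256 counts stood against 51, a ratio of 299 with a 95% interval of 227 to 401 that covers counting error only. In depleted tumours the EpCAM-positive libraries ran from 114 to 151 CPM and the EpCAM-negative ones from 2.31 to 22.6 CPM, a log2 fold change of -3.76 ± 0.37 (adjusted p = 1.49e-08). The contrast itself differed between the treatments, by -4.46 ± 0.62 on the log2 scale (adjusted p = 1.13e-05). The same test of the difference called 5 of the 10 genes. In this test of the difference 18% of all features were called, 9.33% with the contrast lower in control tumours, as for all 5 genes, and 8.69% with it higher.

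Esrp2 was at 37.8 to 44.7 CPM in EpCAM-positive and 0.791 to 2.99 CPM in EpCAM-negative libraries of control tumours. In the depleted mice it was at 44.9 to 62.2 and at 0.0436 to 5.32 CPM. The 2 fractions did not overlap in either treatment, and the log2 fold changes were -4.58 ± 0.38 (adjusted p = 8.64e-10) and -4.00 ± 0.37 (adjusted p = 6.00e-09). The difference between the treatments was -0.58 with a 95% interval of -1.54 to 0.39, and did not pass (adjusted p = 0.476). It passed when the EpCAM-negative depleted library 2 was left out (-0.84, adjusted p = 0.0358), a library with 1 Esrp2 count. Esrp2 shares 219 bases of its exons (5.05%) with Nfatc3 on the opposite strand, and since the counting is not stated to use strand, reads in that stretch cannot be told apart.

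Of the grainyhead-like factors, Grhl2 had the highest mean CPM per kilobase in each group. In control tumours it was at 79.1 to 127 CPM in EpCAM-positive and 6.84 to 42.7 CPM in EpCAM-negative libraries, a log2 fold change of -2.05 ± 0.35 (adjusted p = 5.63e-05). With depletion it was at 99.9 to 132 and 3.45 to 27.7 CPM, a log2 fold change of -2.78 ± 0.36 (adjusted p = 1.03e-06). The 2 fractions stayed apart in either treatment, and EpCAM-negative cells kept 24.2% ± 13.0 of the EpCAM-positive mean in control and 14.6% ± 7.50 in depleted tumours (SD, n = 6). Gm16136, an antisense gene that shares 169 bases (1.96%) of the Grhl2 exons, moved alongside, from a mean of 27.2 CPM with EpCAM to 6.96 CPM without it in control tumours, and its part in the Grhl2 counts was not tested.

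Grhl1 was at 25.4 to 40.0 CPM in EpCAM-positive and 6.24 to 15.3 CPM in EpCAM-negative control libraries, a log2 fold change of -1.66 ± 0.29 (adjusted p = 8.98e-05). In depleted tumours it was at 6.97 to 12.5 and 0.873 to 5.00 CPM, a log2 fold change of -1.99 ± 0.32 (adjusted p = 2.01e-05). The fractions did not overlap, and the 2 contrasts differed by 0.32 with an interval of -0.50 to 1.14 (adjusted p = 0.666). Grhl3, a factor of the epidermal barrier, had the lowest CPM per kilobase of the 10 in EpCAM-positive cells. In control tumours it ran from 0.375 to 4.99 CPM with EpCAM and from 0 to 2.00 CPM without, and these overlapped (log2 fold change -1.57 ± 0.88, adjusted p = 0.197). In the depleted mice it ran from 0 to 1.92 CPM with EpCAM and from 0 to 0.474 CPM without, which overlapped as well. Grhl3 passed there at -3.22 ± 1.04 (adjusted p = 0.0206) on 123 against 12 counts. Of those 12 counts 9 were in EpCAM-negative library 1, without which the value was -4.91 (adjusted p = 0.00282).

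The contrast of both OVOL repressors differed between the treatments. Ovol2 was at 1.67, 3.43, 3.50, 3.55, 4.12 and 4.82 CPM in the EpCAM-positive control libraries and had 0 counts in all 6 EpCAM-negative ones. Against a floor of 3 counts over the group, it was at least 225-fold lower in EpCAM-negative control cells (adjusted p = 2.30e-08). With depletion it was at 2.71 to 6.85 CPM in EpCAM-positive libraries and at 0, 0.197, 0.307, 0.318, 0.702 and 1.16 CPM in EpCAM-negative ones, with 550 against 54 counts and a log2 fold change of -3.33 ± 0.51 (adjusted p = 3.20e-05). The difference of the contrasts passed (adjusted p = 0.000301). Its size was -4.49 on the log2 scale with the 0 counts set to the floor, while the fitted -6.26 depends on the prior count.

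Ovol1 was at 1.96 to 6.18 CPM in EpCAM-positive control libraries and at 0 in 4 of the 6 EpCAM-negative ones, with 0.0643 and 0.139 CPM in the other 2. The sums of 809 and 6 counts give a ratio of 135 with an interval of 61.6 to 368, and the log2 fold change was -6.87 ± 0.70 (adjusted p = 2.77e-08). In depleted tumours Ovol1 was at 3.59 to 6.74 and 0 to 0.947 CPM, a log2 fold change of -3.32 ± 0.54 (adjusted p = 2.73e-05). The contrasts differed by -3.55 ± 0.87 (adjusted p = 0.00496), a call lost by limma on the authors' normalized table (-0.56, adjusted p = 0.106). Without EpCAM-negative control library 5, which holds 4 of the 6 counts, the control contrast was -7.98 and the difference -4.64 (adjusted p = 0.00100). Antisense or opposite-strand genes share part of the exons of either OVOL gene, 17.0% of Ovol2 with 1700108N11Rik, which has 1 count in all libraries, and 19.8% of Ovol1 with Gm31166.

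The ETS factors Elf3 and Ehf fell in both treatments. Elf3 was at 7.72 to 14.1 CPM in EpCAM-positive and 0 to 0.300 CPM in EpCAM-negative control libraries, with 1973 against 24 counts and a log2 fold change of -6.32 ± 0.53 (adjusted p = 1.01e-09). In depleted tumours it was at 5.84 to 9.58 and 0 to 0.895 CPM, a log2 fold change of -3.95 ± 0.47 (adjusted p = 2.82e-07), and the contrasts differed by -2.36 ± 0.69 (adjusted p = 0.0166). Ehf was at 164, 166, 174, 175, 194 and 287 CPM in EpCAM-positive and at 2.64, 3.65, 4.18, 6.65, 10.2 and 10.5 CPM in EpCAM-negative control libraries. No EpCAM-negative library came near the EpCAM-positive range, and the log2 fold change was -4.94 ± 0.37 (adjusted p = 1.04e-10). In depleted tumours Ehf was at 2.90 to 15.5 and 0.0436 to 1.21 CPM, a log2 fold change of -4.02 ± 0.45 (adjusted p = 9.84e-08). The difference of the Ehf contrasts was -0.92 with an interval of -2.10 to 0.27 and did not pass (adjusted p = 0.334), but passed at -2.92 (adjusted p = 1.18e-07) by limma on the authors' normalized table.

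Klf5 was the exception among the 10. In control tumours it was at 35.7 to 49.2 CPM in EpCAM-positive and 30.6 to 46.7 CPM in EpCAM-negative libraries, which overlapped (log2 fold change -0.18, interval -0.40 to 0.04, adjusted p = 0.261). In the depleted mice it was at 50.7 to 69.3 and 62.0 to 97.3 CPM, and rose by 0.39 ± 0.11 on the log2 scale in EpCAM-negative cells (adjusted p = 0.00837). The contrasts differed by -0.57 ± 0.16 (adjusted p = 0.0119).

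**Figure D2:**
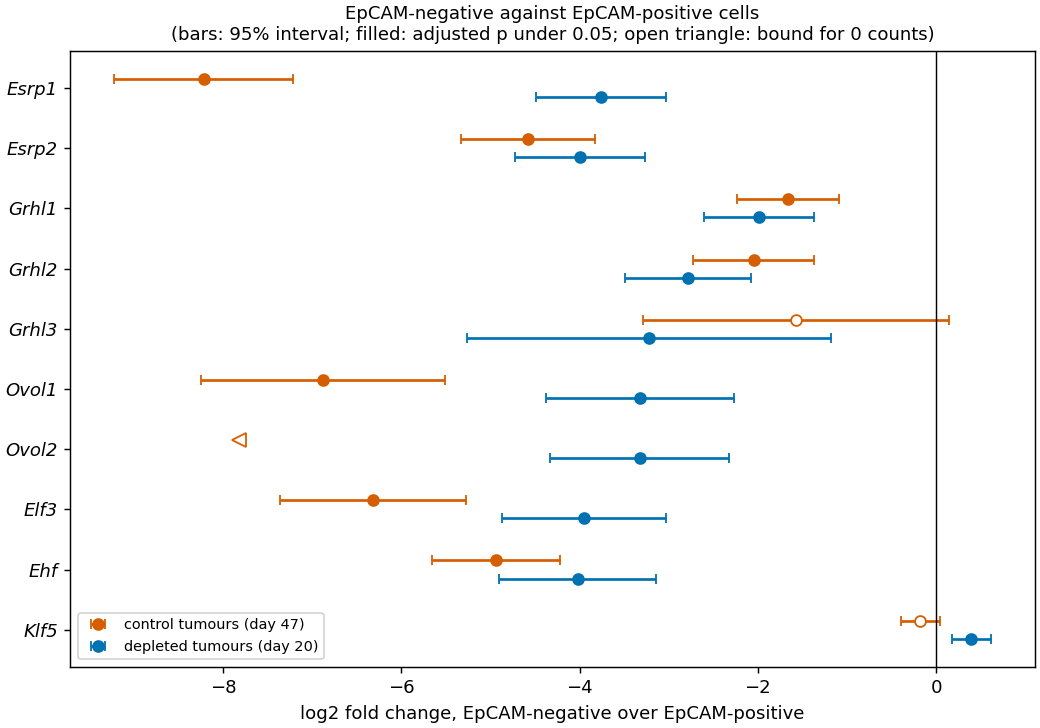
Log2 fold change of EpCAM-negative over EpCAM-positive cells for the 10 genes, in control (orange) and depleted (blue) tumours; bars are 95% intervals, filled points passed the adjusted threshold, and the open triangle is the bound for Ovol2, which has 0 counts in EpCAM-negative control cells. Esrp1, Esrp2, Ovol1, Ovol2, Elf3, Ehf and Klf5 lie further left in control tumours, though the difference did not pass for Esrp2 and Ehf. Klf5 in depleted tumours is the only point to the right of 0.

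The level left in EpCAM-negative cells was set beside that of Epcam itself. In control tumours, where 0.138% ± 0.0462 of the Epcam level was left, the share was 0.334% ± 0.369 for Esrp1, 0.802% ± 1.36 for Ovol1, 1.19% ± 1.25 for Elf3, 3.26% ± 1.76 for Ehf, 4.22% ± 1.83 for Esrp2, 24.2% for Grhl2, 31.6% ± 10.6 for Grhl1 and 33.3% ± 41.1 for Grhl3 (SD, n = 6). Klf5 kept 88.4% ± 14.5, and Ovol2 had 0 counts. In depleted tumours, where 5.76% ± 3.42 of Epcam was left, 7 of the 10 lay closer together: Elf3 at 6.50% ± 3.87, Esrp2 at 6.28% ± 3.47, Ehf at 6.33% ± 4.42, Esrp1 at 7.44% ± 5.25, Ovol1 at 9.95% ± 7.46, Ovol2 at 10.0% ± 9.35 and Grhl3 at 10.7% ± 19.5. Above these lay Grhl2 at 14.6% ± 7.50, Grhl1 at 25.5% ± 17.7 and Klf5 at 131% ± 19.4. The mean share of Epcam was lower in control than in depleted tumours, as for Esrp1, Esrp2, Ovol1, Ovol2, Elf3, Ehf and Klf5. For Grhl1, Grhl2 and Grhl3 the mean share was higher in control tumours. What part the Epcam RNA left in the EpCAM-negative libraries has in these values was not tested.

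**Figure D3:**
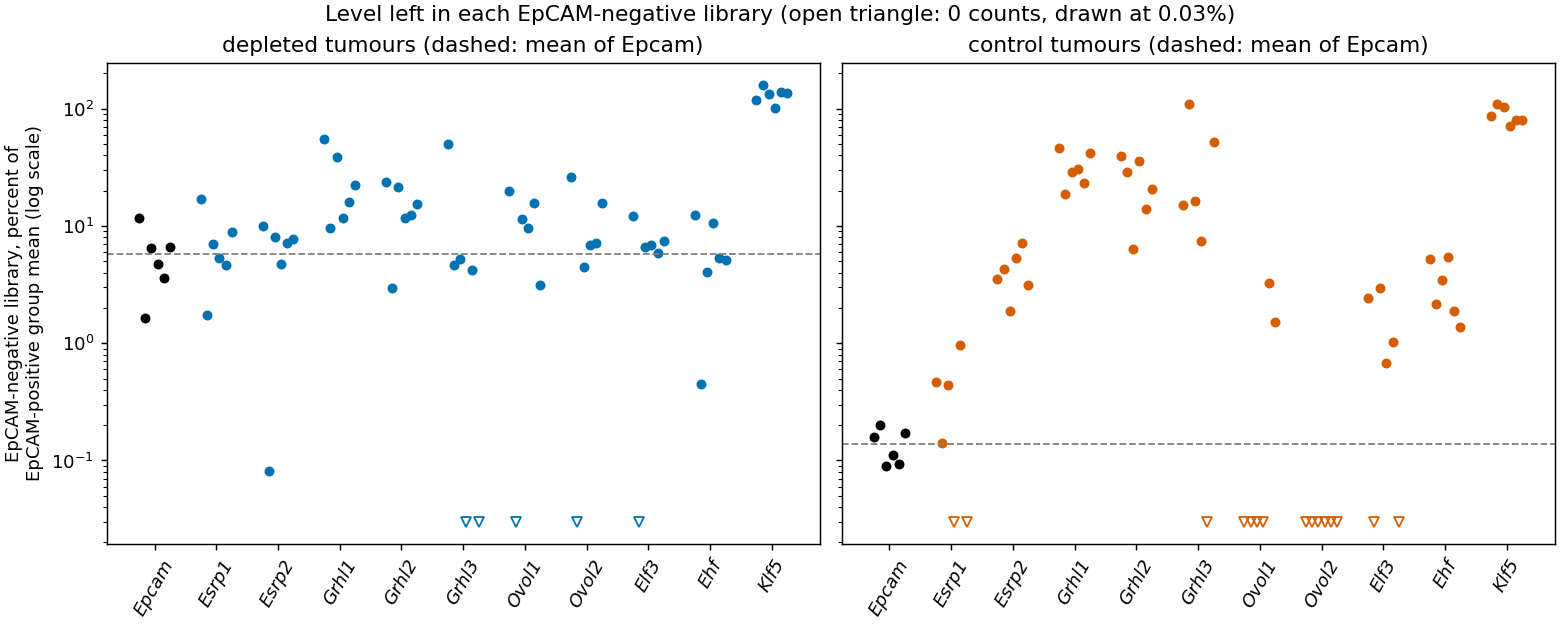
Level of Epcam (black) and the 10 genes in each EpCAM-negative library as a percent of the mean of the EpCAM-positive group of the same treatment, on a log axis, for depleted (left) and control (right) tumours. In depleted tumours most genes lie around the dashed Epcam mean of 5.76%, with Grhl1 at 25.5% and Klf5 at 131% on average. In control tumours the genes spread from 0 counts to 88.4% for Klf5.

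Between the 6 EpCAM-negative libraries of depleted tumours, where Epcam ranged from 40.0 to 284 CPM, Esrp1 followed it with Pearson's r = 0.99 (exact permutation p = 0.00139, adjusted over the 10 genes 0.0139) and Spearman's rho = 1.00 (exact p = 0.00278, adjusted 0.0278). Without libraries 1 and 2, the farthest from the median, r was 0.94. Grhl2 (r = 0.94, exact permutation p = 0.00556, adjusted 0.0185) and Elf3 (r = 0.91, exact p = 0.00417, adjusted 0.0185) had r = 0.75 and r = 0.81 without them. Their rho of 0.89 and 0.94 had adjusted exact p of 0.0667. Libraries 3 to 6 held 10, 10, 11 and 11 Elf3 counts, so the Elf3 r without libraries 1 and 2 cannot be read. Grhl1 (r = 0.87), Ovol2 (r = 0.91) and Esrp2 (r = 0.86) also passed by Pearson's r, with adjusted exact p of 0.0324, 0.0324 and 0.0278. By Spearman's rho they did not pass (adjusted exact p = 0.0667, 0.171 and 0.0667). Without libraries 1 and 2, r was 0.68 for Grhl1 but fell to 0.23 for Ovol2 and 0.37 for Esrp2. The Ovol2 and Esrp2 relations thus rest on those libraries. Ehf (r = 0.83), Ovol1 (r = 0.72), Grhl3 (r = 0.50) and Klf5 (r = -0.56) did not pass. Library 2 was the lowest for Epcam, Esrp1, Esrp2, Grhl1, Grhl2, Ovol1, Ovol2, Elf3 and Ehf, and library 1 the highest.

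The second comparison is that of control with depleted tumours within a fraction, which also compares day 47 with day 20 and deeper with shallower libraries. In EpCAM-positive cells 3 of the 10 genes were called, where 40% of all features were: Grhl1 and Ehf rose (22.4% of all features were called higher) and Klf5 fell (17.6% lower). In EpCAM-negative cells 9 of 10 were called, where 45.1% of all features were. DESeq2 called 8, limma 6 (on the authors' table), and the fit of only these groups 4 of the 6 it tested. Grhl1, Grhl3 and Ehf rose (23.2% of features higher), and Esrp1, Esrp2, Ovol1, Ovol2, Elf3 and Klf5 fell (21.9% lower). The median log2 fold change of the 10 was -0.15 with EpCAM and -1.01 without it, against 0.02 and -0.03 over all features.

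Ehf rose most. EpCAM-positive libraries of depleted tumours held 2.90 to 15.5 CPM and those of control tumours at least 164 CPM, so that the groups did not overlap (log2 fold change 4.31 ± 0.36, adjusted p = 3.92e-10). In EpCAM-negative cells it rose by 3.39 ± 0.45 (adjusted p = 7.40e-07), again without overlap. Grhl1 rose by 1.85 ± 0.30 with EpCAM (adjusted p = 1.45e-05) and by 2.18 ± 0.31 without it (adjusted p = 2.75e-06), and its libraries did not overlap in either fraction. Grhl2, its close relative, was at -0.12 (interval -0.77 to 0.53) and 0.61 (interval -0.06 to 1.29). Of the fits that left out 1 library, it passed in EpCAM-negative cells without control library 3 (0.81, adjusted p = 0.0321).

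Klf5 fell by 0.52 ± 0.11 on the log2 scale in EpCAM-positive cells (adjusted p = 0.000527) and by 1.09 ± 0.11 in EpCAM-negative cells (adjusted p = 1.26e-08). Esrp1 was at 114 to 151 CPM in depleted and 56.1 to 112 CPM in control EpCAM-positive libraries, which do not overlap, but it did not pass at -0.74 ± 0.33 (adjusted p = 0.0754). It did with only the 2 groups compared in the fit (-0.75, adjusted p = 0.00126), with counts thinned to the lowest total (adjusted p = 0.0473) and by limma on the authors' table (adjusted p = 0.00926). In EpCAM-negative cells Esrp1 fell by 5.20 ± 0.51 (adjusted p = 5.23e-09), Ovol1 by 3.73 ± 0.73 (adjusted p = 0.000144) and Elf3 by 1.91 ± 0.57 (adjusted p = 0.00737), the last not by limma on the authors' table (-0.43, adjusted p = 0.0506). Without control library 5, Ovol1 was at -4.82. Ovol2 was at least 27.5-fold lower in control cells, from 54 counts to 0. For Grhl3 (2.60 ± 1.03, adjusted p = 0.0413) and Esrp2 (-0.93 ± 0.38, adjusted p = 0.0457) the call was lost in 7 and 8 of 12 fits that each left out 1 library. Both were also lost without the filter on low counts (adjusted p = 0.0503 and 0.0668) and by limma (0.121 and 0.363), and Esrp2 with DESeq2 (0.0597) and with only the groups compared (0.196). The Grhl3 value ranged from 1.74 without control library 2 to 4.28 without depleted library 1, the only one in which more than 1 Grhl3 count was found in that group.

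Markers of other cell types moved with this comparison. The summed level of 8 fibroblast markers was 78.5 to 231 CPM with EpCAM and 168 to 250.4 CPM without it in depleted tumours, and 1228 to 3238 and 1292 to 5035 CPM in control tumours, with none of the 8 at 0 in any tumour group. Dcn averaged 1.95 CPM in EpCAM-positive depleted cells and 1899 CPM in EpCAM-positive control cells, and Col1a1 42.6 and 485 CPM. In EpCAM-positive cells all 7 myoepithelial markers were higher in control than in depleted tumours. The luminal and milk list was split there, with Krt8 (-1.16) and Krt18 (-1.68), which make up most of its sum, lower and the other 6 tested markers higher. Among these, Krt19 went from 0.270 to 10.6 CPM on average, Prlr from 0.415 to 12.0 CPM and Pgr from 0 to 63 counts over the group. The 12 macrophage markers summed to 121 to 280 CPM with EpCAM and 54.8 to 75.6 CPM without it in control tumours, against 175 to 264 and 144 to 346 CPM in depleted tumours. Of these 12, 1 was higher and 7 lower in control tumours with EpCAM (4 not passed), and 0 higher and 10 lower without it (2 not passed). The 8 endothelial markers summed to 30.5 to 60.6 CPM with EpCAM and 8.94 to 38.8 CPM without it in depleted tumours, and to less in control tumours without overlap, 4.01 to 20.7 and 1.18 to 4.69 CPM. In depleted tumours most of this was Cdh5 (38.3 and 14.6 CPM on average), while Pecam1 averaged 0.339 and 1.41 CPM. Gene by gene, 2 of the 8 were higher and 1 lower in control tumours with EpCAM (5 not passed, median log2 fold change 2.30). Without EpCAM 0 were higher and 2 lower (6 not passed, median -1.13). Differentiated keratinocyte (7 markers, at most 17.0 CPM) and T cell markers (7 markers, at most 3.62 CPM) were low in all libraries. The part of these cells in the results was not tested.

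**Figure D4:**
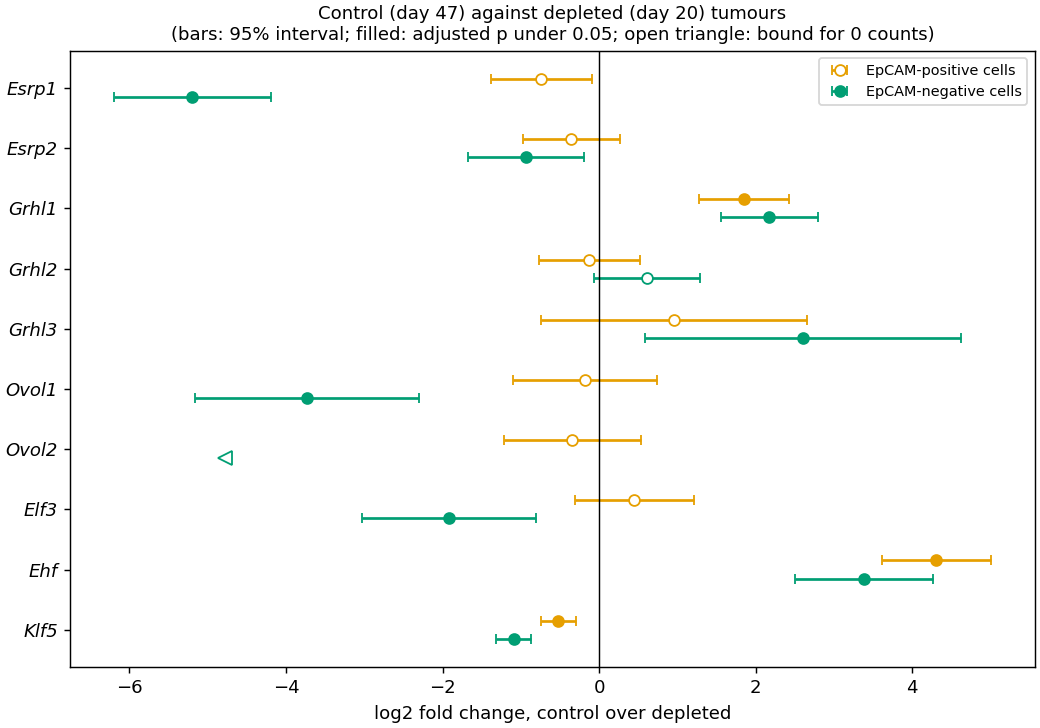
Log2 fold change of control over depleted tumours for the 10 genes in EpCAM-positive (orange) and EpCAM-negative (green) cells; bars are 95% intervals, filled points passed the adjusted threshold, and the open triangle is the bound for Ovol2. Ehf and Grhl1 lie to the right as filled points in either fraction, and Esrp1, Esrp2, Ovol1, Ovol2, Elf3 and Klf5 lie to the left in EpCAM-negative cells.

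Ratios of related genes within a library need no scaling and were set against each other by 20 exact permutation tests (two-sided), for which the smallest p that 6 against 6 libraries allow is 0.00216. The log2 ratio of Esrp1 to Esrp2 counts was 0.88 ± 0.34 in EpCAM-positive and -3.71 ± 2.49 in EpCAM-negative control cells (SD, n = 6, exact permutation p = 0.00216, adjusted 0.00866). With depletion it was 1.31 ± 0.12 and 2.00 ± 1.61 (exact p = 0.370, adjusted 0.494). The highest EpCAM-negative depleted ratio, 5.16, was that of library 2 with 1 Esrp2 count. In 2 EpCAM-negative control libraries Esrp1 had 0 counts, so the size of their ratios depends on the 0.5 added. Esrp1 thus fell further than Esrp2 in control tumours, with every EpCAM-negative library below every EpCAM-positive one. The ratio of Elf3 to Ehf changed with treatment, from -0.26 ± 0.80 to -4.26 ± 0.53 in EpCAM-positive cells and from -0.46 ± 0.71 to -6.19 ± 1.53 in EpCAM-negative cells (exact p = 0.00216 for each, adjusted 0.00866). The ratio of Grhl1 to Grhl2 rose from -3.70 ± 0.29 to -1.70 ± 0.22 in EpCAM-positive cells (exact p = 0.00216, adjusted 0.00866) and from -2.88 ± 0.60 to -1.15 ± 1.01 in EpCAM-negative cells (exact p = 0.00433, adjusted 0.0144). In EpCAM-negative cells the ratio of Esrp1 to Esrp2 was lower in control than in depleted tumours by 5.72 on the log2 scale, with 6 of 6 control libraries below all depleted ones (exact p = 0.00216, adjusted 0.00866), and it passed without any single library. Another 3 tests passed, but each lost its call without some single libraries. No ratio of Grhl2 to Grhl3 or of Ovol1 to Ovol2 passed, and the latter cannot be read in EpCAM-negative control cells, where 6 and 0 counts remain.

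**Figure D5:**
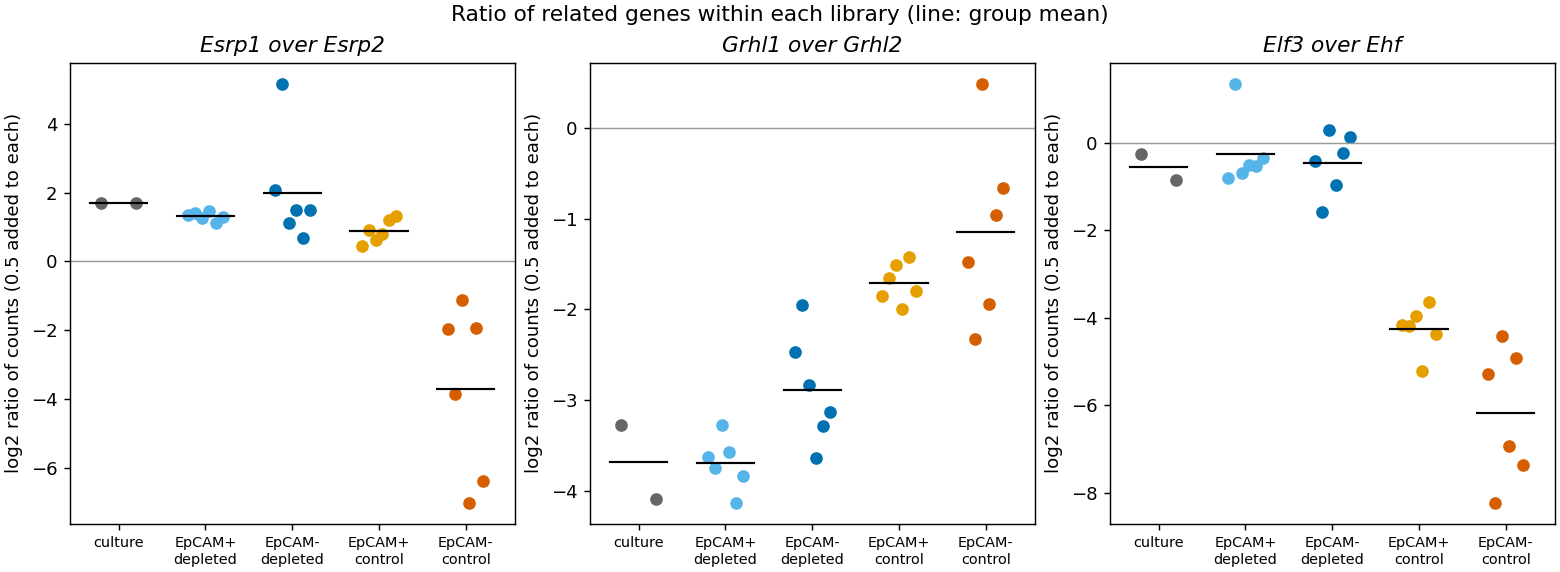
Log2 ratio of the counts of 2 related genes in each library, with 0.5 added to each count, for Esrp1 over Esrp2, Grhl1 over Grhl2 and Elf3 over Ehf by group; points are libraries and lines are group means. The Elf3 to Ehf ratio drops from -0.26 to -4.26 between EpCAM-positive depleted and control cells.

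The third comparison sets each tumour group against the injected line in culture, and all 4 share the same 2 culture libraries. Per length of the gene model, in CPM per kilobase, Esrp1 ranked first of the 10 in culture (20.6) and in EpCAM-positive depleted cells (21.1), Ehf in EpCAM-positive control cells (34.7), and Klf5 in EpCAM-negative cells of depleted (15.5) and control (7.25) tumours. In EpCAM-positive depleted cells 0 of the 10 genes were called against culture by edgeR, where 39.5% of all features were (20.9% higher, 18.6% lower). At an unadjusted p under 0.05 there was 1, Ehf (9.71 ± 4.11 against 18.1 ± 0.968 CPM, adjusted p = 0.106). DESeq2 and limma each called 0, and the fit of only these 2 groups called 2, Esrp2 (0.41, adjusted p = 0.0365) and Elf3 (-0.78, adjusted p = 0.0140). EpCAM-positive control cells had 3 called, where 50.2% of features were (27.8% higher, 22.4% lower), with Ehf (3.41 ± 0.54, adjusted p = 8.42e-06) and Grhl1 (1.83 ± 0.45, adjusted p = 0.00140) higher than in culture and Klf5 lower (-0.79 ± 0.15, adjusted p = 9.11e-05).

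EpCAM-negative depleted cells were lower than culture in 9 of the 10, where 42.4% of features were called, 21.8% higher and 20.6% lower, and Klf5 did not pass (0.12, interval -0.18 to 0.43). The Grhl3 call (-3.70 ± 1.21, adjusted p = 0.0157) was lost without culture library 2 (-3.45, adjusted p = 0.0769), and the value was -5.43 without depleted library 1. EpCAM-negative control cells were lower in 8, where 50.7% of features were called, 26.5% higher and 24.2% lower. Grhl1 (10.5 ± 3.52 against 9.33 ± 2.99 CPM) and Grhl3 did not pass there. Marker sums differed from culture too: fibroblast markers were at 17.2 to 18.5 CPM in culture and at least 78.5 CPM in each tumour library, endothelial markers at 0.385 to 0.819 and at least 1.18 CPM, and myoepithelial markers at 358 to 368 CPM in culture, within the range of EpCAM-negative control cells alone. Macrophage markers summed to 69.4 to 71.0 CPM in culture, also within that range alone, though 6 of the 12 were higher than culture there and 1 was lower. Their part in these comparisons was not tested. Against culture, Ovol2 was at -4.47 in EpCAM-negative depleted cells without library 1 of that group, and Esrp1 was at -9.54 and Ovol1 at -8.62 in EpCAM-negative control cells without library 5 of that group. In order of mean level, Esrp1 separated all neighbouring groups except culture and EpCAM-positive depleted cells, while the 5 groups of Grhl3 all overlapped with their neighbours.

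Genes that the 10 are known to act on, or that counteract them, were taken from lists. Of all tested features 13.3% were called higher and 14.5% lower in EpCAM-negative control cells. In depleted ones 14.2% were called higher and 14.3% lower. The EMT-inducing repressor Zeb1 was at 1.45 to 7.41 CPM in EpCAM-positive libraries of depleted tumours and 64.3 to 99.2 CPM in EpCAM-negative ones (log2 fold change 4.22, adjusted p = 3.96e-12). In control tumours it was at 15.7 to 32.9 and 69.3 to 94.1 CPM (1.74, adjusted p = 6.73e-07). With EpCAM, control cells thus held more Zeb1 than depleted ones (2.46, adjusted p = 4.31e-09), while the EpCAM-negative cells of the 2 treatments differed by -0.02 (adjusted p = 0.939). Zeb2 rose by 2.73 and 1.63 in EpCAM-negative cells of depleted and control tumours. Of the 10 tested EMT-inducing factors 4 were higher and 2 lower in EpCAM-negative control cells, and 5 were higher and 1 lower in depleted ones. Snai1 (1.09 and 1.00) and Tcf4 (0.75 and 0.72) rose in control and depleted tumours. Those that fell were Snai2, at 18.8 CPM with EpCAM and 2.35 CPM without it in control tumours (adjusted p = 1.89e-08), and Snai3, with 78 against 0 counts there and 115 against 25 in depleted tumours.

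Of 13 known targets of grainyhead-like factors, 12 were lower in EpCAM-negative control cells and 9 in depleted ones, with none higher and medians of -5.83 and -3.45. Cdh1, the gene for E-cadherin, changed by -2.49 and -3.54, Spint1, a protease inhibitor gene, by -9.81 and -3.91, Prss8, a membrane protease gene, by -4.82 and -3.62, and the tight junction gene Cldn3 by -3.69 and -2.25. Unlike Esrp1, Cdh1 fell less in control than in depleted tumours (difference 1.05, adjusted p = 0.006). Arhgef19 passed in neither treatment (0.07 and -0.03).

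Of 12 genes whose transcripts ESRP proteins splice, 0 were higher and 3 lower in EpCAM-negative control cells by edgeR, and 1 was higher and 6 lower in depleted ones. Over all features 27.9% were called in control tumours, near the share of this list, and 28.5% in depleted ones. Cd44, a cell adhesion receptor, changed by -0.29 and -0.83, and Epb41l5 by -1.05 and -1.15. Enah, an actin regulator, was the gene that rose in depleted tumours (1.71). Gene-level counts do not show which splice form was made. Fgfr2, a growth factor receptor and classic ESRP target, was higher in control than in depleted tumours, by 6.24 with EpCAM and 5.46 without it, from at most 1.09 CPM in any depleted library to 7.66 CPM or more in any control library.

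Of 19 other splicing regulators, 5 were higher and 3 lower in EpCAM-negative control cells, and 3 were higher and 4 lower in depleted ones. Calls over all features were 27.9% and 28.5%. Rbm47, an RNA-binding protein of epithelial cells, changed by -2.14 and -0.96, and Ptbp3 by -0.94 and -0.49. Qki, which favours mesenchymal splice forms, rose by 0.34 and 0.64, and Mbnl1 by 0.41 and 0.47. Rbfox2, a splicing factor of mesenchymal cells, rose by 0.40 in control tumours and was at -0.09 (adjusted p = 0.606) in depleted ones, and its contrasts differed by 0.49 (adjusted p = 0.0279).

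Among 18 tested relatives of the ETS, KLF, OVOL and grainyhead families, 2 were higher and 5 lower in EpCAM-negative control cells, and 8 were higher and 4 lower in depleted ones. Calls over all features were 27.9% and 28.5% in these comparisons. In depleted tumours Klf2 (1.78), Klf7 (0.68) and Klf4 (1.14) rose, as Klf5 did. The grainyhead relative Tfcp2l1 changed by -5.61 and -3.17. Elf5, an ETS factor of the alveolar lineage, changed by -3.60 in control and -4.59 in depleted tumours, and rose from depleted to control tumours by 2.39 with EpCAM and 3.38 without it, as Ehf did. Of 13 tested other epithelial transcription factors, 8 were lower in EpCAM-negative control cells and 6 in depleted ones, where 1, Klf4, was higher. Zfp750, a factor of epidermal differentiation, changed by -2.66 and -3.01. In EpCAM-positive cells 9 of the 13 rose from depleted to control tumours and 2 fell, and Trp63, the p63 gene of basal cells, rose by 2.39. Over all features 22.4% were called higher and 17.6% lower there.

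Across the 24 tumour libraries the 10 genes fell along more than a single pattern, given as Pearson's r of log2 CPM, in which libraries of a group share treatment, fraction and depth. Esrp1, Esrp2, Ovol1, Ovol2 and Elf3 correlated with each other at r = 0.84 to r = 0.96. Grhl1 and Ehf correlated at r = 0.93, while Klf5 was at r = -0.70 with Grhl1 and r = -0.63 with Ehf. Of 45 pairs 11 were above 0.9 and 5 below 0. The 3 other genes most alike in pattern were Ap1m2 (r = 0.99), Spint1 and Grb7 for Esrp1, Marveld3 (r = 0.98), Tmem51 and Llgl2 for Esrp2, Llgl2 (r = 0.97), Tc2n and Marveld3 for Grhl2, and Fzd7 (r = 0.95), Ccdc126 and Ace for Grhl1. Ovol1 (r = 0.97) and Ovol2 (r = 0.98) had Prkcz in common as the nearest gene. The nearest were Arhgap8 (r = 0.98) for Elf3, Shroom3 (r = 0.97) for Ehf, Rala (r = 0.95) for Klf5 and Slc27a4 (r = 0.81) for Grhl3.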

How the data were processed

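RNA sequencing counts from 26 libraries were analysed. Libraries were made with the SMARTer v4 kit (10, 12 or 14 PCR cycles) and Nextera XT, per the labels' protocols. Intervals of ratios of summed counts cover counting error only, while those of log2 fold changes use the standard errors of the fit. The authors deposited raw read counts per gene, with STAR (no version named) and build mm9, as the submitters' processing notes list. No source used here names the counting tool, its strand setting or the annotation. They also deposited a table on a log2 scale, made with DESeq2 1.22.2, per the same notes, used only in an alternative. Of the 47729 Ensembl genes, 47224 matched a symbol of GENCODE M21. Exon lengths, for CPM per kilobase, and the exon bases shared between genes were taken from the GENCODE M21 exon coordinates. These follow a different build from the alignment, and the effect of this on lengths and shared bases was not tested. Promoters are those of RefSeq (GRCm38.p6).

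Counts were normalized by TMM and tested with edgeR 4.0.16 under R 4.3.3 (quasi-likelihood, filterByExpr by group, 1 coefficient per group, all 26 libraries in 1 fit, common biological coefficient of variation 0.293). Each of 9 comparisons was adjusted by Benjamini-Hochberg over 16637 features at 0.05. Standard errors come from the test statistic. CPM use TMM library sizes, and log2 CPM a prior count of 2. Ratios within a library add 0.5 counts to each gene. A gene with 0 counts over a group was set to a floor of 3 counts for its bound. Totals ran from 17559520 to 38740143 counts. The fitting and the permutation code were tested on simulated data. Alternatives were DESeq2 1.42.0, DESeq2 size factors, no filter on low counts, counts thinned to 17559520, only the groups compared, limma 3.58.1 on the authors' log2 table, a replicate block, another prior count, 2 counts added to ratios, and leaving out each library.

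All 10 genes are named. Others follow a rule: the 3 genes most alike each by Pearson's r, up to 4 per list by smallest p, and Epcam, Zeb1, Zeb2, Cdh1, Rbfox2, Qki, Rbm47, Elf5 and Klf4. Snai3 and Arhgef19 were singled out after their values were seen, as were the markers named within a list. The genes and lists were chosen with earlier results of these data known.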

Additional observations from a re-analysis of the deposited data

Results flagged for a closer look

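Grhl3 had 0.474 CPM in EpCAM-negative depleted library 1, far above the other 5 of its group, and 4.99 CPM in EpCAM-positive control library 6, again far above the rest. Ehf had 287 CPM in EpCAM-positive control library 4, where the other 5 lay between 164 and 194 CPM. Dixon's test at the 95% level flagged these 3 of 39 groups, and chance flags about 1 in 20.

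The EpCAM contrast differed between control and depleted tumours for 5 of the 10 genes (18% of all features were called, 9.33% lower) by the test of the difference itself, on the log2 scale by -4.46 for Esrp1, -3.55 for Ovol1, -6.26 (fitted, dependent on the prior count) for Ovol2, -2.36 for Elf3 and -0.57 for Klf5. The Epcam contrast differed by -5.37 in the same test. Its part in the values of the 5 genes was not tested.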

How the results depend on the processing

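Of the 9 counts of called genes, 5 stayed within 1.5 times the main count in every alternative run. With only the groups compared, control against depleted tumours called 5 genes instead of 3 in EpCAM-positive cells (2 higher, 3 lower) and 4 instead of 9 in EpCAM-negative cells, where the filter left 6 of the 10 for testing. In that fit EpCAM-positive cells against culture called 2 instead of 0 in depleted and 5 instead of 3 in control tumours. Leaving out 1 library gave 5 to 6 calls for the difference of the contrasts, 7 to 9 for control against depleted EpCAM-negative cells and 8 to 9 for EpCAM-negative depleted cells against culture, and moved no other count.

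Signs turned only for values that had not passed. On the authors' table the difference of the contrasts was 0.13 for Esrp2 and -0.37 for Grhl1. For EpCAM-positive depleted cells against culture, the values were -0.012 (Esrp1) and -0.037 (Grhl2) without the filter, 0.017 (Grhl1) with thinned counts and -0.012 (Grhl2) with only the groups compared. With 2 counts added, the ratio of Grhl2 to Grhl3 was -0.40 between the fractions of control tumours and that of Ovol1 to Ovol2 was -0.0064 in depleted tumours. Leaving out 1 library each gave, against culture, -0.11 to 0.14 (Esrp1), -0.35 to 0.33 (Grhl1) and -0.088 to 0.059 (Grhl2) in EpCAM-positive depleted cells, -0.056 to 0.19 (Esrp2) and -0.10 to 0.74 (Grhl3) in EpCAM-positive control cells, and -0.16 to 0.52 (Grhl1) in EpCAM-negative control cells. The ratios ranged from -0.67 to 0.49 (Grhl2 to Grhl3, fractions of control tumours), -0.38 to 0.78 (the same, depleted), -0.24 to 0.44 (Ovol1 to Ovol2, fractions of depleted tumours), -0.15 to 0.34 (Ovol1 to Ovol2, control against depleted EpCAM-positive cells) and -0.36 to 0.11 (Elf3 to Ehf, fractions of depleted tumours). The cause was not tested.

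The 3 ratios that passed less firmly were Esrp1 to Esrp2 from depleted to control EpCAM-positive cells (-0.43, adjusted exact p = 0.0385, lost in 9 of 12 fits without 1 library), Grhl1 to Grhl2 between the fractions of depleted tumours (0.81, adjusted exact p = 0.0379, lost in 6) and Elf3 to Ehf between those of control tumours (-1.93, adjusted exact p = 0.0371, lost in 5, and -1.02 with adjusted p = 0.0770 with 2 counts added).

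The fractions were sorted from the same tumours, but the labels do not say that equal numbers mark a tumour. Over all 16637 tested genes, deviations of equally numbered libraries correlated at r = 0.0175 to 0.0469 in depleted tumours and 0.0497 to 0.172 in control tumours, so not every pair was over 0.1 and the numbers were not taken as pairs. A repeat on the 9080 genes above 10 CPM on average, a limit chosen after the first check was seen, gave 0.108 to 0.294 and 0.0716 to 0.433, with 6 of 6 and 5 of 6 libraries closest to their own number. With a replicate block by number within treatment, the counts were 8, 10 and 5 for the EpCAM contrasts and their difference, as without it. A replicate block by number across treatments, whose mice differ, gave 7 calls for control against depleted EpCAM-negative cells and 8 for EpCAM-negative depleted cells against culture, and values against culture of -0.017 (Esrp1), 0.027 (Grhl1) and 0.025 (Grhl3) in EpCAM-positive depleted and -0.080 (Esrp2) in EpCAM-positive control cells. Counts of 0 to 12 over a group limit what Ovol1, Ovol2 and Grhl3 can show in EpCAM-negative cells.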
